A study of Cicer arietinum with 11 samples.

Results

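The transcripts described here are those of chickpea (Cicer arietinum) that were highest in the last flower bud stage, low in vegetative tissue and still present in the samples labelled flower. They were chosen from the deposited values themselves, in RPKM (reads scaled by transcript length and sequencing depth). Flower bud 4 had to be the highest of all 11 libraries and at least 5 RPKM, at least 10 times the highest vegetative library and at least 3 times the lowest of the 8 reproductive libraries. The highest of the 4 flower libraries had to exceed 25% of the flower bud 4 value. These conditions selected 195 of 34760 transcripts, or 0.561%. The peak in flower bud 4 and the low vegetative level are therefore how the members were found, not results, and values for them are given as a description.

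All plants were of the genotype ICC4958, and no treatment is given in the labels. The reproductive libraries were flower bud 1 to 4 and flower 1 to 4, from mature plants; the vegetative ones were a germinating seedling, young leaves of mature plants and shoot apical meristems taken from plants 20 days old. Each tissue or stage was sequenced as 1 library, so no value has a replicate, and differences between stages carry no test unless several libraries are grouped. Seedlings were raised indoors and mature plants outdoors. Effects of site and age therefore cannot be told apart from those of tissue in comparisons with the seedling or with the vegetative libraries as a group. The meristem plants differed in age as well. Young leaves, like the reproductive libraries, came from mature plants. Library totals recovered from the RPKM values ran from 14536530 reads in flower bud 2 to 35643139 in flower bud 3. The stage numbers are taken to follow development, which the labels do not state.

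In a legume flower, sepals, petals, stamens and carpel form while the bud is closed; meiosis in the anthers is followed by pollen maturation, and chickpea is largely self-pollinated around the time the bud opens. After pollination the petals age and the ovary begins to form a pod. Plant tissues that mature late in the bud, such as pollen and petals, each use sets of transcripts that are scarce in leaves and meristems. The transcript IDs in the files come without gene names, and 0 of 34760 were found in the reference table of 29938 chickpea genes, so what the members encode is not stated, no sequence could be shown and the labelled tissues could not be checked against marker genes.

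Together the members took up 7.24% of the recovered read total in flower bud 4. Reads on the transcript set made up 99.952% to 99.998% of these totals, so shares of reads here are in effect shares of mapped reads. By stage, their share of reads was 0.779% in flower bud 1, 2.16% in flower bud 2, 3.50% in flower bud 3, 7.24% in flower bud 4, 4.64% in flower 1, 3.27% in flower 2, 1.12% in flower 3 and 4.43% in flower 4. The vegetative shares were 0.0222% (seedling), 0.0212% (leaves) and 0.0249% (meristem). The exact (Clopper-Pearson) 95% intervals were narrow, 7.23% to 7.25% in flower bud 4 and 1.11% to 1.12% in flower 3, and cover counting error only. The share was thus higher in each bud than in the bud before, was lower in each of the first 3 flowers than in the stage before, and was higher again in flower 4. These are whole-tissue samples, in which fewer cells of a type and less RNA per cell cannot be told apart.

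**Figure D1:**
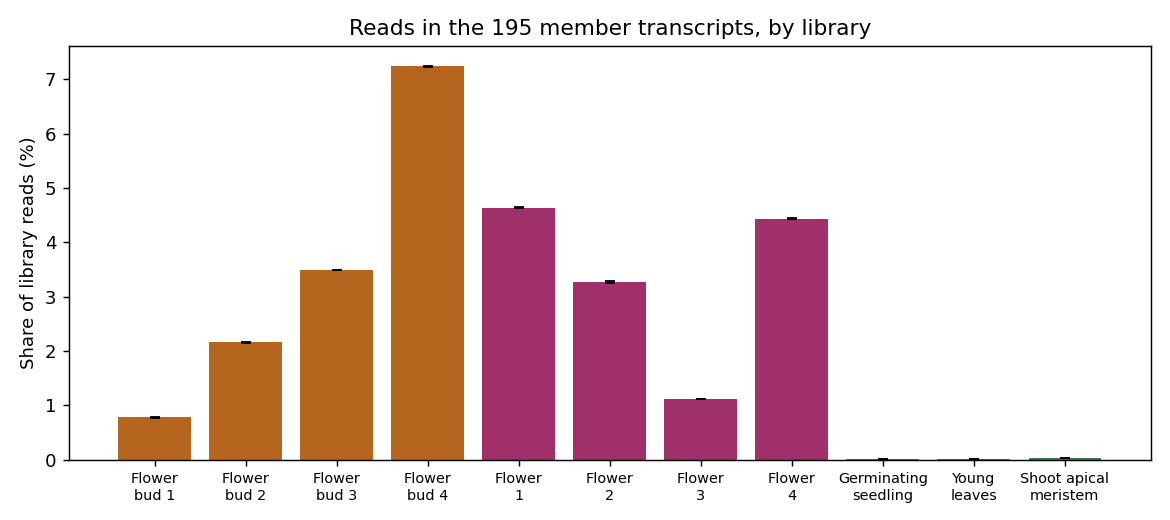
Share of each library's recovered read total that fell in the 195 members (bars, %), by stage and then for the vegetative tissues. Error bars are exact 95% binomial intervals. Flower bud 4 stands at 7.24%, flower 3 at 1.12% and flower 4 at 4.43%, with each vegetative library at 0.0249% or less.

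Single members covered a wide range of levels. Their flower bud 4 values ran from 5.62 to 3726 RPKM with a median of 84.9; 184 reached 10 RPKM, 88 reached 100 and 19 reached 1000. The 10 highest held 38.1% of the members' summed RPKM in flower bud 4 and 58.6% in flower bud 1. Reads behind a member's flower bud 4 value numbered at least 26, with a median of 1496.

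The most abundant member, Ca_TC08771, had 593, 1758, 2065 and 3726 RPKM in flower bud 1 to 4 and 2550, 1991, 704 and 2516 RPKM in flower 1 to 4, against 2.31 RPKM in the germinating seedling, 0.726 in young leaves and 0 in the shoot apical meristem. Ca_TC12236 was lower in each reproductive library. It had 480, 1293, 1611 and 2804 RPKM in the buds and 1702, 1223, 571 and 1926 RPKM in the flowers. In seedling, leaves and meristem it was higher than Ca_TC08771, at 10.1, 9.16 and 9.43 RPKM. Its second highest library was flower 4, where that of Ca_TC08771 was flower 1. In both, the lowest reproductive library was flower bud 1 and the lowest flower was flower 3. Ca_TC04246 had 240, 878, 1450 and 2556 RPKM in the buds and 1434, 996, 344 and 1961 RPKM in the flowers, against 0.786, 4.03 and 0.316 RPKM in the vegetative tissues.

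Ca_TC11813 had 443, 1028, 1361 and 2406 RPKM in the buds and 1364, 924, 298 and 1130 RPKM in the flowers, and no read in any vegetative library. Against a floor of 3 reads over all 82596607 vegetative reads, its flower bud 4 level was at least 126795-fold higher. Ca_TC18979 began lowest of the 10, with 104, 545, 820 and 1780 RPKM in the buds and 1092, 766, 388 and 1485 RPKM in the flowers, against 0.1 RPKM in the seedling and 0 in leaves and meristem.

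The other 5 of the 10 highest, Ca_TC19405, Ca_TC07104, Ca_TC12569, Ca_TC19022 and Ca_TC19636, likewise were lower in each flower from 1 to 3 and higher in flower 4. Over all 10, flower bud 4 was 1.56 to 2.17 times flower bud 3, and flower 4 was 3.37 to 5.70 times flower 3. Flower bud 4 was 4.19 to 8.07 times flower 3.

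**Figure D2:**
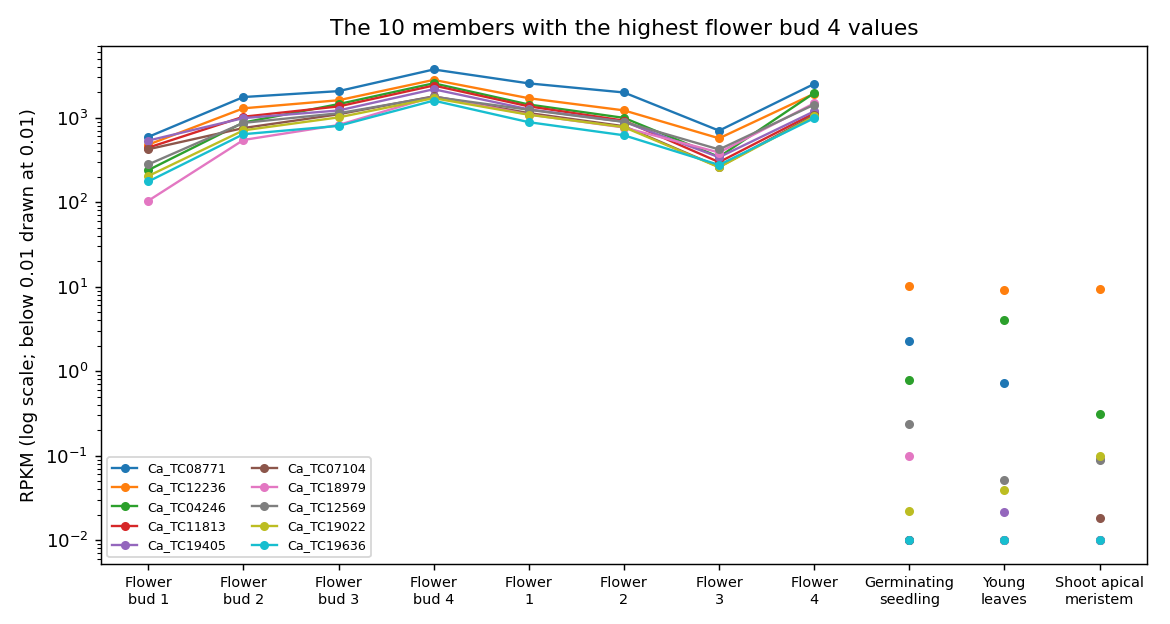
RPKM (log axis) of the 10 members with the highest flower bud 4 values, in the 8 reproductive stages (joined points) and the 3 vegetative tissues (single points); values below 0.01 RPKM are drawn at 0.01. Each curve is highest in flower bud 4, and flower 3 is the lowest of the 4 flowers in each.

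At flower bud 1 the median member stood at 5.55% of its flower bud 4 value, at flower bud 2 at 15.1% and at flower bud 3 at 34.4%. An unbroken order of flower bud 1 below flower bud 2 below flower bud 3 was seen in 161 of 195 members, against 19.1% of the 31776 transcripts with at least 1 RPKM in at least 3 libraries, a filter that all 195 members passed. Flower bud 3 was at least 2-fold above flower bud 2, on the log2(RPKM + 1) scale, in 95 members, against 3.78% of those transcripts, and flower bud 2 was likewise at least 2-fold above flower bud 1 in 95 members, against 6.77%. The rule set the lowest reproductive library below the peak, so it favours low early buds, and these shares support nothing beyond the description. The rise was also common in other sets with a reproductive peak, given below. The lowest reproductive library was flower bud 1 for 127 members, flower bud 2 for 24, flower 3 for 33, flower 4 for 8, flower 1 for 2 and flower 2 for 1.

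In 67 members flower bud 3 was still under 25% of flower bud 4, in 72 it lay from 25% to under 50%, and in 56 it had reached 50% or more. At flower bud 1 and 2 the median was 2.14% and 4.31% of the peak in the 67, and 15.9% and 36.7% in the 56. Median flower bud 4 values were 76.5 RPKM in the 67, 102 in the 72 and 91.1 in the 56.

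The largest ratio of flower bud 4 to flower bud 3, 42.7, belonged to Ca_TC18668, which had 0.385, 0, 2.78 and 119 RPKM in flower bud 1 to 4 and 107, 72.0, 12.9 and 117 RPKM in flower 1 to 4, against 0, 0 and 0.0414 RPKM in germinating seedling, young leaves and meristem. Flower bud 2 held 0 of its reads, so flower bud 4 was at least 440-fold higher than a floor of 3 reads there. Ca_TC19010 had 0.266, 0.103, 23.4 and 248 RPKM in the buds and 152, 102, 29.0 and 60.5 RPKM in the flowers, with 0 vegetative reads. Its 2 reads in flower bud 2 give a flower bud 4 ratio of 2410, with an exact 95% counting interval of 667 to 19900. Both were thus close to undetected in the first 2 buds.

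Ca_TC19102 had 0.044, 3.17, 44.0 and 241 RPKM in the buds and 95.4, 45.1, 18.1 and 73.4 RPKM in the flowers, against 0, 0 and 2.74 RPKM in the vegetative tissues. Here flower bud 4 exceeded flower bud 1, with 3 reads, by a ratio of 5490 and a counting interval of 1880 to 26600. Ca_TC20211 had 0.188, 0.146, 7.19 and 128 RPKM in the buds, then 56.8, 37.2, 9.36 and 25.3 RPKM in the flowers, and 0 vegetative reads.

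At the other end, Ca_TC22004 had 4.22, 8.33, 13.0 and 13.6 RPKM in the buds and 3.76, 2.98, 0.152 and 1.49 RPKM in the flowers, and 0 in all vegetative libraries. Its flower bud 4 value was only 1.05 times that of flower bud 3, from 130 reads. Ca_TC02305 had 65.7, 127, 119 and 136 RPKM in the buds and 75.7, 63.0, 24.6 and 81.2 RPKM in the flowers, against 7.5, 5.69 and 11.6 RPKM in the vegetative tissues, and was the 1 member whose second highest library was flower bud 2. For such members the peak stage is a matter of small differences. Over all members the 95% Poisson interval of flower bud 4 lay above that of the second highest library in 150 of 195. The rule itself made flower bud 4 the highest library, so this count is a description only.

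**Figure D3:**
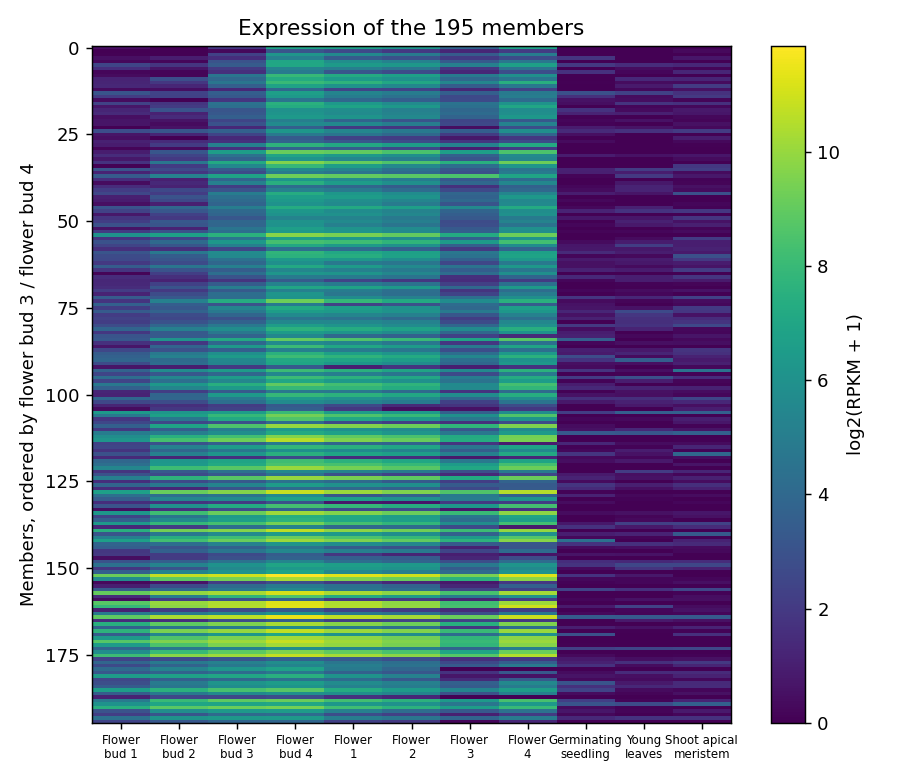
log2(RPKM + 1) of the 195 members (rows) in the 11 libraries (columns), with rows ordered from the lowest to the highest ratio of flower bud 3 to flower bud 4. Rows at the top are dark through flower bud 2, many rows nearer the bottom are already bright there, and the flower 3 column is darker than its neighbours in most rows.

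After the peak, flower 1 was the second highest library for 113 members, flower 4 for 42, flower bud 3 for 37 and flower 3 for 2. Median values as a share of flower bud 4 were 66.2% in flower 1, 46.0% in flower 2, 13.1% in flower 3 and 55.9% in flower 4. The rule asks that 1 flower exceed 25% of the peak and fixes no order among the 4. A flower can also be the low reproductive library that the rule asks for. It was the lowest as flower 3 in 33 members, flower 4 in 8, flower 1 in 2 and flower 2 in 1. The conditions thus favour a spread among the flowers, and shares against unselected transcripts are a description. Flower 3 was the lowest of the 4 flowers in 178 of 195 members, against 38.7% of the 31776 transcripts. The full order of flower 1 above flower 2 above flower 3, with flower 4 above flower 3, held in 174 members, against 18.3%.

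**Figure D4:**
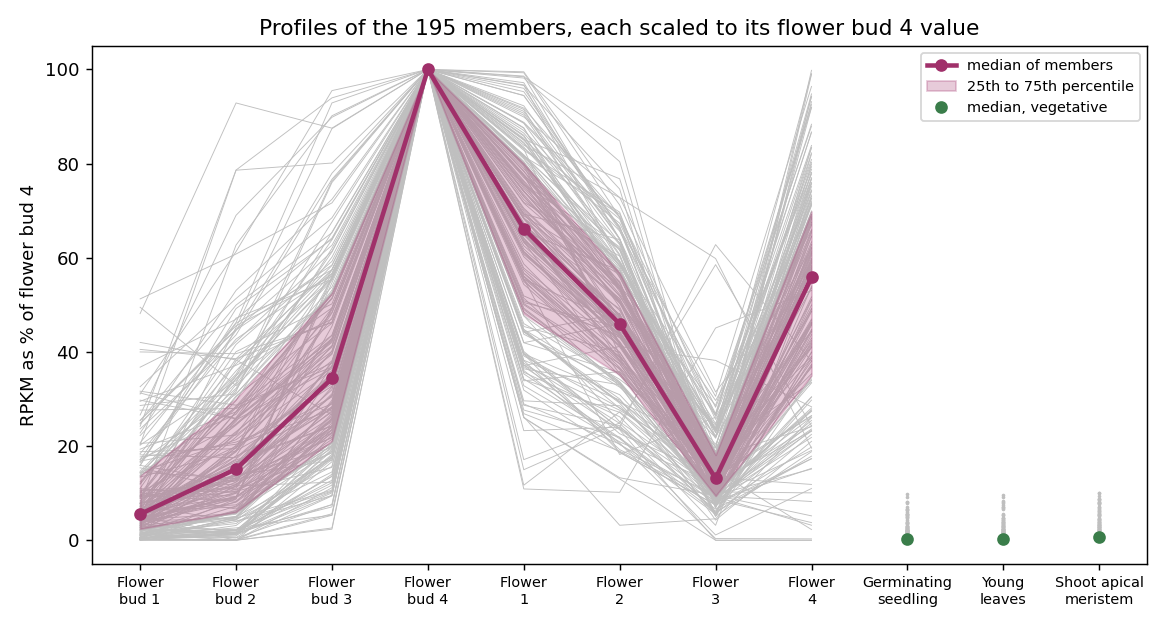
RPKM of each member as a percentage of its flower bud 4 value (grey lines and points), with the median (coloured points) and the 25th to 75th percentile (band) over the 195 members, by stage and vegetative tissue. The median is 13.1% in flower 3 and 55.9% in flower 4.

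Among the flowers, large steps lay on either side of flower 3. Flower 2 was below flower 1 in 187 members, against 12925 of the 31776 transcripts. It was below by 2-fold or more in 3 members, against 0.623%. Flower 3 was at least 2-fold below flower 2 in 168, against 12.3%. Flower 4 was at least 2-fold above flower 3 in 165, against 6.49%, and at least 2-fold below it in 3, against 3.81%. For 163 members the 95% Poisson interval of flower 4 lay above that of flower 3. That count depends on read number and was not made for the other transcripts, so it has no share to stand against. The median ratio of flower 4 to flower 3, with values under 0.1 RPKM set to 0.1, was 3.82 with a 25th to 75th percentile of 2.88 to 4.93, while over the 31776 transcripts the median was 1.10.

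Flower 4 exceeded flower 2 in 131 members and flower 1 in 50. Flower 3 stood below flower bud 3 in 164 members and below flower bud 1 in 40. These counts were not made for the other transcripts, and the rule favours low early buds, so they are a description. The median ratio of flower 4 to flower 3 was 3.91 in the 67 members with flower bud 3 under 25% of flower bud 4, 4.17 in the 72 from 25% to under 50% and 3.60 in the 56 at 50% or more. By level it was 3.83 for members of at least 1000 RPKM, 3.93 for those of 100 to under 1000 and 3.70 for those under 100, and the order of decline and return held in 19 of 19, 66 of 69 and 89 of 107.

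Other transcript sets defined from the same values are given beside the members for scale; transcripts of 1 library are not replicates, so the differences between sets have no test. Flower 3 was at least 2-fold below flower 2 in 86.2% of the members, in 42.1% of 38 transcripts that met every other condition but had no flower above 25% of flower bud 4, in 38.7% of 757 whose vegetative level alone was too high, in 86.5% of 96 that peaked in flower 1 under the same level, vegetative and lowest-library conditions, and in 17.2% of 99 that did so in flower bud 3. Flower 4 was at least 2-fold above flower 3 in 84.6% of the members, and in the same sets in 13.2%, 15.6%, 41.7% and 10.1%. Flower 4 was at least 2-fold below flower 3 in 1.54% of the members and in 28.1% of the set that peaked in flower 1. The order of flower bud 1 below 2 below 3 held in 82.6% of the members, and in the same sets in 76.3%, 47.2%, 66.7% and 90.9%. Flower bud 2 was at least 2-fold above flower bud 1 in 48.7% of the members, and in those sets in 47.4%, 8.45%, 28.1% and 41.4%. The rise through the buds was thus not particular to the members. The sets were split by flower and bud values that the conditions used, so these shares are a description.

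**Figure D5:**
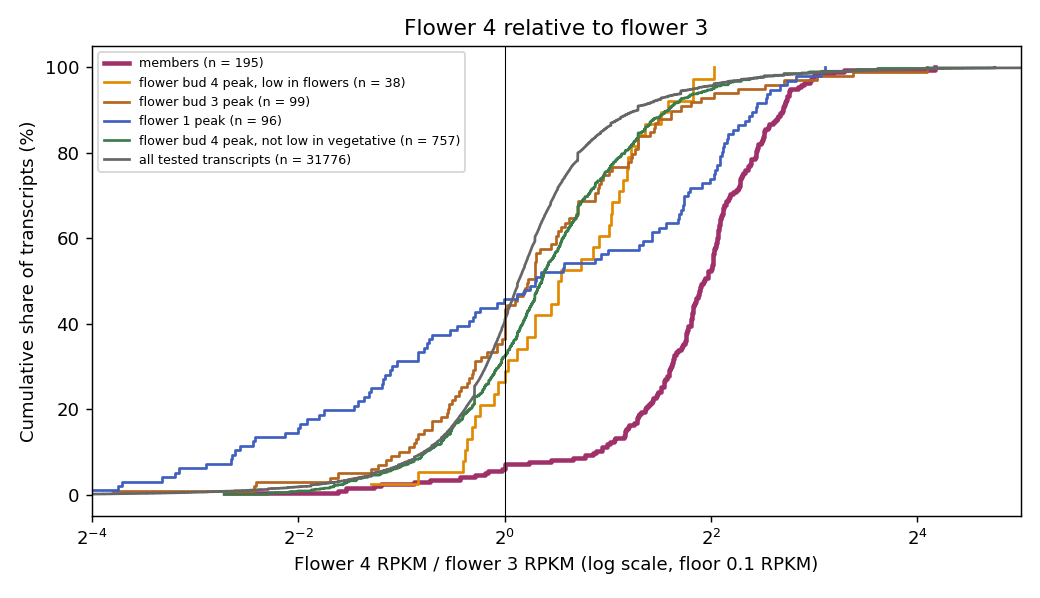
Cumulative share of transcripts (%) by the ratio of flower 4 to flower 3 RPKM (log axis, values under 0.1 RPKM set to 0.1), for the members, 4 other sets and all transcripts tested; a curve further right means higher in flower 4. The members' median ratio is 3.82 and that of all transcripts tested 1.10.

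The largest ratio of flower 4 to flower 3 rested on few reads. Ca_TC32693 had 0, 0.484, 1.58 and 10.9 RPKM in the buds and 3.13, 2.65, 0.346 and 6.21 RPKM in the flowers, against 0.883, 0.519 and 0.223 RPKM in the vegetative tissues; its 22 reads in flower 4 against 1 in flower 3 give a ratio of 18.0 with an exact 95% counting interval of 2.90 to 741. The next, Ca_TC22004, was at 9.80 with an interval of 1.45 to 419. Ca_TC18668 was at 9.08 with 7.86 to 10.5, and so the best measured of the 3.

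A minority departed from the common course: flower 3 was not the lowest flower in 17 members and lay above flower 4 in 12. Over the 31776 transcripts, flower 3 lay above flower 4 in 12890. Ca_TC13345 was the most abundant of these, with 9.54, 36.7, 116 and 613 RPKM in the buds and 515, 446, 367 and 120 RPKM in the flowers, against 0.130, 2.87 and 0.693 RPKM in the vegetative tissues. Each of its flowers was lower than the one before, and its ratio of flower 4 to flower 3 was 0.327 (exact 95% counting interval 0.310 to 0.345). Ca_TC26363 had 15.0, 16.4, 5.31 and 0.812 RPKM in the flowers after 35.7 in flower bud 4, and Ca_TC27300 had 14.1, 12.6, 2.58 and 0.888 after 27.9.

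Flower 3 held at least 50% of the flower bud 4 value in 3 members: Ca_TC13345, Ca_TC31116 and Ca_TC29945, the last chosen after its values were seen. Ca_TC31116 had 18.9, 18.8, 21.9 and 47.4 RPKM in the buds and 8.11, 11.8, 27.7 and 11.5 RPKM in the flowers, against 1.20, 0.176 and 0.304 RPKM in the vegetative tissues. Ca_TC29945 had 11.5, 10.5, 7.29 and 27.4 RPKM in the buds and 4.10, 6.58, 17.2 and 10.4 RPKM in the flowers, against 0.472, 0 and 0.179 RPKM. In these last 2, flower 3 was the second highest library, the reverse of the common order within the flowers.

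Grouping the stages allowed a test of the flower series, on flower values that the rule had used in part. In limma on log2(RPKM + 1), with a Benjamini-Hochberg adjusted p under 0.05 and a log2 difference of at least 1 in size, flowers 3 and 4 were compared with flowers 1 and 2, and the spread was pooled over 4 groups of all 11 libraries. The median log2 difference of the members was -0.94, against -0.07 over all transcripts tested, and 190 of 195 were below 0. That last count was not made for the other transcripts. Of the members 2 passed as lower and 0 as higher, where 0.249% of all transcripts tested passed as lower and 0.267% as higher. The pooled spread took in the flower buds, among which the rule had picked a high flower bud 4. That can widen the members' spread and favours few calls, so these counts are a description. The members' median fitted SD was 1.021. Without flower bud 4 it was 0.7525, with 4 members lower (98 of all 31694 transcripts). In the 4 flower libraries alone it was 0.6244, with 7 lower (1071 of 27992). In limma 14 members had an unadjusted p under 0.05, against 3553 of the 31776 transcripts tested. Flower 3 carried the median: without it the value was -0.02, and without flower 4 it was -1.83.

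The 2 that fell in the later flowers did so without a return. Ca_TC23292 had 91.2, 108, 127 and 178 RPKM in the buds and 66.3, 36.7, 0.634 and 0.517 RPKM in the flowers, against 0.539, 0.396 and 1.23 RPKM in the vegetative tissues, so its 2 late flowers were at the vegetative level. The fitted log2 difference of Ca_TC23292 was -5.00 ± 0.40 (SE; limma, adjusted p = 0.00244). Without flower 1 it was -4.58 and no longer passed (limma, adjusted p = 0.0503). Ca_TC26084 had 15.9, 38.3, 73.4 and 109 RPKM in the buds and 28.3, 14.1, 0 and 0 RPKM in the flowers, with 0 reads in all vegetative libraries. A floor of 3 reads was worth 0.882 RPKM in flower 3 and 0.720 in flower 4. The fitted difference of Ca_TC26084 was -4.40 ± 0.70 (SE; limma, adjusted p = 0.024). Without flower 1, 2, 3 or 4 it was -3.92, -4.87, -4.40 and -4.40 and lost the call (limma, adjusted p of 0.399, 0.125, 0.181 and 0.195). Ca_TC27753, named after its values were seen, was the other member with 0 reads in flowers 3 and 4, after 5.95 RPKM in flower bud 4.

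Between the flower and flower bud classes, few members passed the test. The median log2 difference was 0.68 (all transcripts tested, -0.15), with 143 members above 0 and 52 below. How many of the other transcripts lay on each side was not counted. In limma 29 members had an unadjusted p under 0.05, against 7876 of the 31776 transcripts tested. As higher 0 members passed and as lower 1, where 2.36% and 3.35% of all transcripts tested passed. The 1 was Ca_TC22004 (-1.88 ± 0.45, SE; limma, adjusted p = 0.0317). It lost the call in 7 of 17 other settings, where the log2 difference kept its sign: without flower bud 2, 3 or 4 (limma, adjusted p of 0.0821, 0.0979 and 0.0658), without flower 3 or 4 (0.0752 and 0.0826), with a pseudocount of 0.1 (0.0695) and with the stage number as a block (0.0832). The rule used the highest bud, which pulls flowers below buds. A peak picked in flower bud 4 can also widen the spread within the buds, which favours few calls. The members' median fitted SD was 1.041, and 0.8302 without flower bud 4. The low number of calls is thus a description only. Without flower bud 4 the counts were 35 members higher and 0 lower and the median 1.35. Of 31694 transcripts tested there, 813 (2.57%) passed as higher and 1123 (3.54%) as lower. Leaving out that bud does not remove the selection. The rule also asked for a low reproductive library, which was flower bud 1 for 127 members and flower bud 2 for 24. It further asked for a flower above a set share of flower bud 4. Both conditions favour flowers above the remaining buds, so the 35 are a description only.

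Against vegetative tissue, which the rule used, 165 members passed as higher in the 8 reproductive libraries, where 5.50% of all transcripts tested did, and nothing is read from this. No vegetative read was found for 21 members; the 3 most abundant of these were Ca_TC11813, Ca_TC19636 and Ca_TC19842. Ca_TC19842 had 42.2, 281, 439 and 1031 RPKM in the buds and 662, 435, 138 and 582 RPKM in the flowers, at least 13630-fold above the vegetative floor in flower bud 4. For 108 members every vegetative value was under 1 RPKM. Where there were vegetative reads, the highest library was the shoot apical meristem for 81 members, the germinating seedling for 54 and young leaves for 39, and the median member was 57.6 times higher in flower bud 4. The highest vegetative value of any member was 21.9 RPKM.

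Just inside and just outside the vegetative limit of 10 times were Ca_TC33684 at 10.01 and Ca_TC25145 at 9.97; at the flower limit of 25%, a ratio to flower bud 4 of 0.26 belonged to Ca_TC26084 and of 0.245 to Ca_TC30027. For the lowest reproductive library, Ca_TC10497 stood at 4.23 times and Ca_TC02062 at 2.71 times. Ca_TC16791 had 5.62 RPKM in flower bud 4 and Ca_TC32297 4.25, around the limit of 5. Ca_TC32373, with 44.4 RPKM in both flower bud 4 and flower 4, was a member by a ratio of 1.002, whereas Ca_TC22088, with 159 RPKM in both, was not, at 0.997. The vegetative limit alone kept out 757 transcripts and the peak stage alone 172. Under the level, vegetative and lowest-library conditions 1023 transcripts peaked in a reproductive library, of which 233 did so in flower bud 4, 200 in flower bud 1, 131 in flower 4, 106 in flower 3, 99 in flower bud 3, 96 in flower 1, 94 in flower bud 2 and 64 in flower 2.

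Recovered transcript length had a median of 614 bases among members (25th to 75th percentile 445 to 1114), against 736 bases (236 to 1462) for all transcripts with a value above 0. The rule named no length, but RPKM divides by it, so length enters the minimum of 5 RPKM and the level groups. Recovered lengths are the shortest that gave whole reads and can be too short where reads are few. These lengths are a description. The 19 members of at least 1000 RPKM were longer, with a median of 1722 bases, and those under 100 RPKM had 513. Transcripts of near-identical sequence may share reads, which makes values of similar members uncertain: how the authors handled such reads is not given in the sources used here.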

How the data were processed

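The authors deposited RPKM values for 11 libraries, made, per the series text, from reads cleaned with NGS QC Toolkit and mapped to a set of 34760 chickpea transcripts; the aligner, its settings and strand use were not given in the sources used here. The 128 blank rows in each file were left out. Whole reads, totals and lengths were recovered from ratios of RPKM values, taking for each transcript the smallest length from 100 bases up that gave whole reads; all 34703 transcripts above 0 gave whole reads, which summed to 99.952% to 99.998% of the totals. RPKM divides by the library total, so abundant transcripts lower the rest. The recovery and the tests were checked on simulated data.

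Groups were compared with limma 3.58.1 (R 4.3.3) on log2(RPKM + 1), for transcripts of at least 1 RPKM in at least 3 libraries, with an intensity trend. One fit held vegetative, flower bud and flower groups; another split the flowers into 1 to 2 and 3 to 4. A group holds different tissues or stages, not repeats, so p-values measure the spread between these. Intervals and floors of 3 reads cover counting error only. Python 3.11.15 and scipy 1.17.1 were used. Members and named transcripts were chosen with earlier results of these data known. The text names the members highest in flower bud 4, those with the largest and smallest ratios between stages, those with the highest level for each lowest and second highest stage, those without vegetative reads, those called in later flowers, and those nearest each limit of the rule.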

Additional observations from a re-analysis of the deposited data

Results flagged for a closer look

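Among 62 groups of 4 libraries (the flower buds and the flowers, for each named member and for the members' share of reads), 5 had 1 library far from the other 3 by Dixon's criterion at 95%, where chance flags about 1 group in 20. Each was flower bud 4, which the rule selects for: 248 RPKM for Ca_TC19010, 119 for Ca_TC18668, 128 for Ca_TC20211, 10.9 for Ca_TC32693 and 47.4 for Ca_TC31116.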

How the results depend on the processing

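The number of members was 195 as given and stayed within 1.5 times of it under each rule setting and with each library but flower bud 4 left out in turn (194 to 239); with median-of-ratios scaling it was 184, of which 172 were among the 195. The pseudocount of 0.1 moved the members' median log2 difference between reproductive and vegetative libraries to 5.111, against 3.707 with 1, and leaving out libraries gave 3.291 to 4.025 with 120 to 175 members called higher. Of the flowers against flower buds, leaving out libraries gave medians of 0.0763 to 1.349, with 0 to 35 members higher and 0 to 6 lower; 2 were lower with quantile normalization and 2 in a fit on the 8 reproductive libraries alone. Of flowers 3 and 4 against 1 and 2, leaving out libraries gave -1.829 to -0.0201 and 0 to 4 members lower, and 7 were lower in the 4 flower libraries alone, where 1032 transcripts were higher and 1071 lower against 85 and 79 in the fit on all libraries. Without flower 1, limma called 0 of 31656 transcripts there, with 1519 at an unadjusted p under 0.05. That contrast called 25 higher and 36 lower with pseudocount 0.1, and 146 and 82 with median-of-ratios scaling. Ca_TC23292 ran from -5.418 to -4.581 and Ca_TC26084 from -4.871 to -3.921. The members at least 2-fold higher in flower 4 than in flower 3 kept their count within 1.5 times under 3 settings chosen after seeing the data. The causes were not tested.

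Flower buds and flowers share the numbers 1 to 4, which are stages and not pairs: deviations of same-numbered stages correlated at -0.195, -0.149, -0.0784 and -0.127. With the stage number as a replicate block on the 8 reproductive libraries, 0 members were higher and 0 lower (1194 and 1329 of all transcripts, against 1597 and 1768 without the block on the same libraries). Depth limits the low members: in flower 3, 1 read in a transcript of 736 bases was worth 0.0667 RPKM.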

Other observations

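The members' ID numbers were unevenly spread: 82 of 195 (42.1%) lay between 18000 and 21999, a range chosen after the IDs were seen, against 11.5% of all IDs. The share was 32.3% for transcripts that peaked in flower 1, 20.2% for those that peaked in flower bud 3, 13.2% for those that peaked in flower bud 4 with no flower above 25% of it, 5.42% for the 757 kept out by the vegetative limit alone, and 22.2% for all 1023 with a reproductive peak. What the numbering follows is not given in the sources used here.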
